A study of Mus musculus with 16 samples.

Results

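The genes described here are 10 acute phase and inflammation genes of newborn mouse lung, namely Il6, Ptgs2, Saa1, Saa3, Hp, Orm1, Lcn2, Serpina3n, Kng1 and C3. They were picked by gene symbol from the annotation of a one-colour Agilent microarray, with measured values in view, because they stood high on 1 array, replicate 1 of the group labelled Fgf10+/- in hyperoxia. The array holds 31 features for these 10 genes among 31465 features that name a gene, and all 10 were among the 20051 genes tested. RNA came from whole lung homogenates of pups at postnatal day 3, 1 array per sample and 4 arrays in each of 4 groups, 16 arrays in all. Pups were wild type or labelled Fgf10+/-, a genotype in which 1 copy of the fibroblast growth factor 10 gene is inactivated, and they were kept in normoxia or in 85% oxygen between postnatal day 0 and day 3. The control groups were thus untreated pups of the same 2 genotypes. The labels name no strain, litter or sex, and they do not say whether replicates came from separate litters, so p-values reflect no more than the spread among these arrays, which may be technical.

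The acute phase response is the change in secreted proteins that follows injury or infection. Cytokines of the interleukin-6 and interleukin-1 families switch on transcription factors of the STAT, C/EBP and NF-kB families, which raise the acute phase genes in liver and also in epithelia, macrophages and fibroblasts of other organs, lung included. Its products bind lipids and haemoglobin, withhold iron from bacteria, inhibit proteases and feed the complement and kinin cascades.

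The stretch of promoter just before the transcription start was read for the genes that the RefSeq table of assembly GRCm38.p6 holds, which were 7 of the 10 (Saa1, Saa3, Lcn2, Serpina3n, C3, Il6 and Ptgs2). In the 250 bases before the start, 3 motifs were searched on both strands, the C/EBP motif TTGCNNAA, the STAT motif TTCNNNGAA, and the NF-kB motif by its name. The C/EBP letters occurred in 6 of the 7, all but Serpina3n, against 9.56% of 32851 promoters of the same length. The NF-kB motif was found in 1 of the 7, Il6, against 7.25% of all promoters, and the STAT letters in 0 of the 7, against 7.02%. These matches describe letters in a window and show no binding. Printed here are Saa1, Saa3 and Lcn2, whose levels varied together from array to array, and Il6, which carried a match to both the C/EBP and the NF-kB motif. Each is written 5′ to 3′ on the strand of its gene with the matched letters in capitals. Saa1 is the region chr7:46742981-46743230 on the minus strand, Saa3 chr7:46715677-46715926 on the minus strand, Lcn2 chr2:32387740-32387989 on the minus strand, and Il6 chr5:30012864-30013113 on the plus strand.
Saa1: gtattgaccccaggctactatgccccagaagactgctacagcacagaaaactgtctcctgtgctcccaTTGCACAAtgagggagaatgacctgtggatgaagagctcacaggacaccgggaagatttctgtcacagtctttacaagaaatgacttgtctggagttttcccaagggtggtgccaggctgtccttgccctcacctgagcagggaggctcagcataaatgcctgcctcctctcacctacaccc
Saa3: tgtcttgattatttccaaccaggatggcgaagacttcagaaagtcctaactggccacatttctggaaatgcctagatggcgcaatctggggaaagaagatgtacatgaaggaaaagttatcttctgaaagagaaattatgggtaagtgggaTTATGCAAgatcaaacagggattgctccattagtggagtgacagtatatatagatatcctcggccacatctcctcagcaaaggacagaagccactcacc
Lcn2: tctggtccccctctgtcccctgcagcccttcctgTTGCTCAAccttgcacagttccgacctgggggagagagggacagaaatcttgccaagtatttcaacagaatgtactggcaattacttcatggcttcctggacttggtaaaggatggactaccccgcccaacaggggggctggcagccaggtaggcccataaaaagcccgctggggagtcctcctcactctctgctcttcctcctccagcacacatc
Il6: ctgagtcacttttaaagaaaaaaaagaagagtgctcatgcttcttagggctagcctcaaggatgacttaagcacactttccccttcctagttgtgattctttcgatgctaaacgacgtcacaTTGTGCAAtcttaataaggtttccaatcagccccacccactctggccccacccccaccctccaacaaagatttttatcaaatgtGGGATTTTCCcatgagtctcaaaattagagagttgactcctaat
The capitals mark the C/EBP match at bases -182 to -175 from the start in Saa1, -99 to -92 in Saa3, -216 to -209 in Lcn2 and -128 to -121 in Il6. In Il6 the capitals at -44 to -35 are the NF-kB match, which does not overlap the other.

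All values are log2 intensities as deposited, given in the order of replicates 1 to 4, and the median of an array was 4.50. Replicates of a group correlated with r from 0.975 to 0.983 over all tested genes. Lung identity was plain from surfactant protein gene Sftpc, which lay at 15.97 to 15.99, the top of the scale, on all arrays. Replicate 4 of wild-type normoxia stood apart: the mean of 15 skeletal muscle markers was 7.95 there against 4.71 to 5.0 on the other 3 arrays, and that of 12 adipocyte markers was 6.65 against 5.28 to 5.50. Fgf10 itself averaged 7.80 in wild-type and 8.28 in Fgf10+/- normoxia, and 7.85 and 7.64 in hyperoxia. It was thus not lower in the normoxia group labelled Fgf10+/-, but the sources used here do not give whether its feature lies in the inactivated stretch. It therefore does not check the labels, and the genotype is used as labelled throughout.

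The array by which the genes were picked, replicate 1 of Fgf10+/- hyperoxia, is described without a test. Saa3 stood 2.66 above the mean of the other 3 arrays of its group, Saa1 2.44, Orm1 2.01 and Kng1 1.17. Smaller excesses were those of Lcn2 (0.95), Il6 (0.86), Hp (0.57), Serpina3n (0.52), C3 (0.18) and Ptgs2 (0.13). It held the highest level of all 16 arrays for Saa1, Saa3, Orm1, Serpina3n, Kng1 and Il6. Ranked by this excess among 13537 genes above the array median there, Saa3 was 18th and Saa1 24th, and 0 of the 15 leading genes belonged to the 10. Those 15 included the monocyte and macrophage chemokines Ccl3 (3.80), Ccl4 (3.47) and Ccl2 (3.38), Acod1 (3.97), which makes itaconate in activated macrophages, and the cystatin Csta2 (2.86). For Acod1 the other 9 features gave 3.28 to 4.46 and for Ccl2 3.15 to 3.42. Ccl3 and Ccl4 had a single feature each, and so had the 5 leading genes, Cndp1 (6.60), Zfp623, Spring1, Abhd2 and Fgf3 (4.75). A second feature of Capn9 (4.50) gave 0.45.

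Since some array of each group must lead for a gene, the leading arrays are given as a description. Replicate 1 of Fgf10+/- hyperoxia held the highest level of its group for 9 of the 10 genes, replicate 1 of Fgf10+/- normoxia for 8, replicate 2 of wild-type hyperoxia for 8 and replicate 1 of wild-type normoxia for 4. Over all genes those arrays were highest in their group for 24.7%, 27.8%, 26.6% and 23.0%. Averaged over the 10 genes they lay 1.15, 1.27, 0.90 and 0.58 above the other 3 arrays of their group. At the other end, replicate 4 of wild-type hyperoxia was lowest in its group for 7 of the 10 genes and averaged -0.77 against its mates. In wild-type normoxia the lead was shared, with replicate 4 highest for 3 of the 10 genes.

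**Figure D1:**
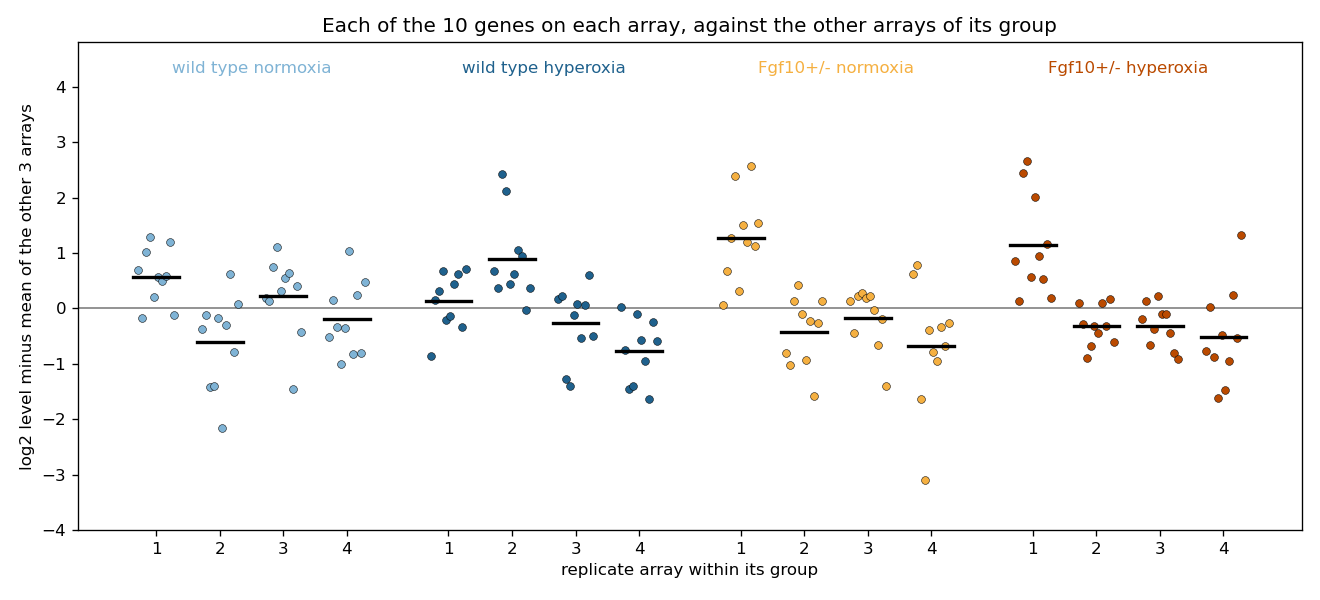
Position of each of the 10 genes on each of the 16 arrays, as the log2 level minus the mean of the other 3 arrays of its group (vertical axis), by replicate and group (horizontal axis). Points are genes and black bars their mean; the bars lie highest on replicate 1 of Fgf10+/- normoxia (1.27), replicate 1 of Fgf10+/- hyperoxia (1.15) and replicate 2 of wild-type hyperoxia (0.90).

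The spread of single genes was unequal. With the picked array left out, the SD within groups was 1.26 for Saa3, larger than for 99.7% of genes, 0.95 for Saa1 (98.4%), 0.93 for Serpina3n (98.1%) and 0.78 for Orm1 (95.4%), against a median of 0.29 over all genes. Hp was steady, with an SD of 0.24 that exceeded 41.6% of genes. Deviations from the group means, over those 15 arrays, ran closely together for Saa1 and Saa3 (r = 0.93), Saa3 and Lcn2 (0.93), Saa1 and Lcn2 (0.86) and Saa3 and Hp (0.79). C3 went its own way, with r = 0.22 against the mean of the other 9 genes, and it paired best with Serpina3n (0.66), which paired nearly as well with Ptgs2 (0.64). Such correlations describe 15 arrays whose genes share each library.

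By the same measure against the mean of the 10, the genes most like them over 16 arrays were Clec4e (0.92), a C-type lectin receptor of myeloid cells, the neutrophil chemokine Cxcl5 (0.91), Gli2 (0.90), Clec4d (0.90), a partner of Clec4e, Rpl36al (0.89), the lipopolysaccharide co-receptor Cd14 (0.89), Ugt2a3, Vill, Rbks and Hk2. Without the picked array they were Fgl1 (0.92), Clec4e (0.91), Rpl36al (0.91), Eif2s2 (0.91), Rbks (0.90), Minpp1, Cd14 (0.89), Clip4, Cxcl5 (0.88) and surfactant protein gene Sftpd (0.87), so 5 of 10 were shared. The first ranking includes the picked array, on which the 10 stood high. Both rankings give the extremes of all genes compared, so they only describe these arrays.

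The tests that follow used the 15 arrays without the picked one, in a single limma fit over all genes, and a gene was called at an adjusted p under 0.05. In wild-type lung 3 of the 10 genes rose in hyperoxia (Kng1, Hp and Serpina3n), 0 fell and 7 did not pass, where 19.2% of all tested genes were called and 10.3% were called higher. In Fgf10+/- lung 4 of the 10 rose (Kng1, Hp, Serpina3n and Ptgs2), 0 fell and 6 did not pass, against 20.2% of all genes called and 11.1% called higher. The Ptgs2 call depends on the feature used. With the mean of each gene's features, or in a fit of only the groups compared, Ptgs2 did not pass and 3 of the 10 were called. The median difference of the 10 genes was 0.63 in wild type and 0.91 in Fgf10+/-, and that of all genes 0.03 in both. Serpina3n was above the filter on low values almost only in hyperoxia, so it entered the test through those arrays. With no filter the counts stayed at 3 and 4, with Serpina3n called in wild type (1.96, limma adjusted p = 0.0382). Its normoxia signal lay mostly under the filter level, so the size of its difference is uncertain. Without Serpina3n 2 genes were called in wild type and 3 in Fgf10+/-. In wild type 3 of the 10 had every hyperoxia array above every normoxia array, as had 13.6% of all genes, and in Fgf10+/- 4 had, as had 15.9%. Without wild-type normoxia replicate 4, the array with muscle markers, Kng1 differed by 2.58 (adjusted p = 0.000823), Hp by 1.11 (adjusted p = 0.00147) and Serpina3n by 2.02 (adjusted p = 0.0623), so 2 of the 10 were called in wild type. Since the picked array is the highest or second in its group for all 10 genes, leaving it out lowers the Fgf10+/- hyperoxia means.

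**Figure D2:**
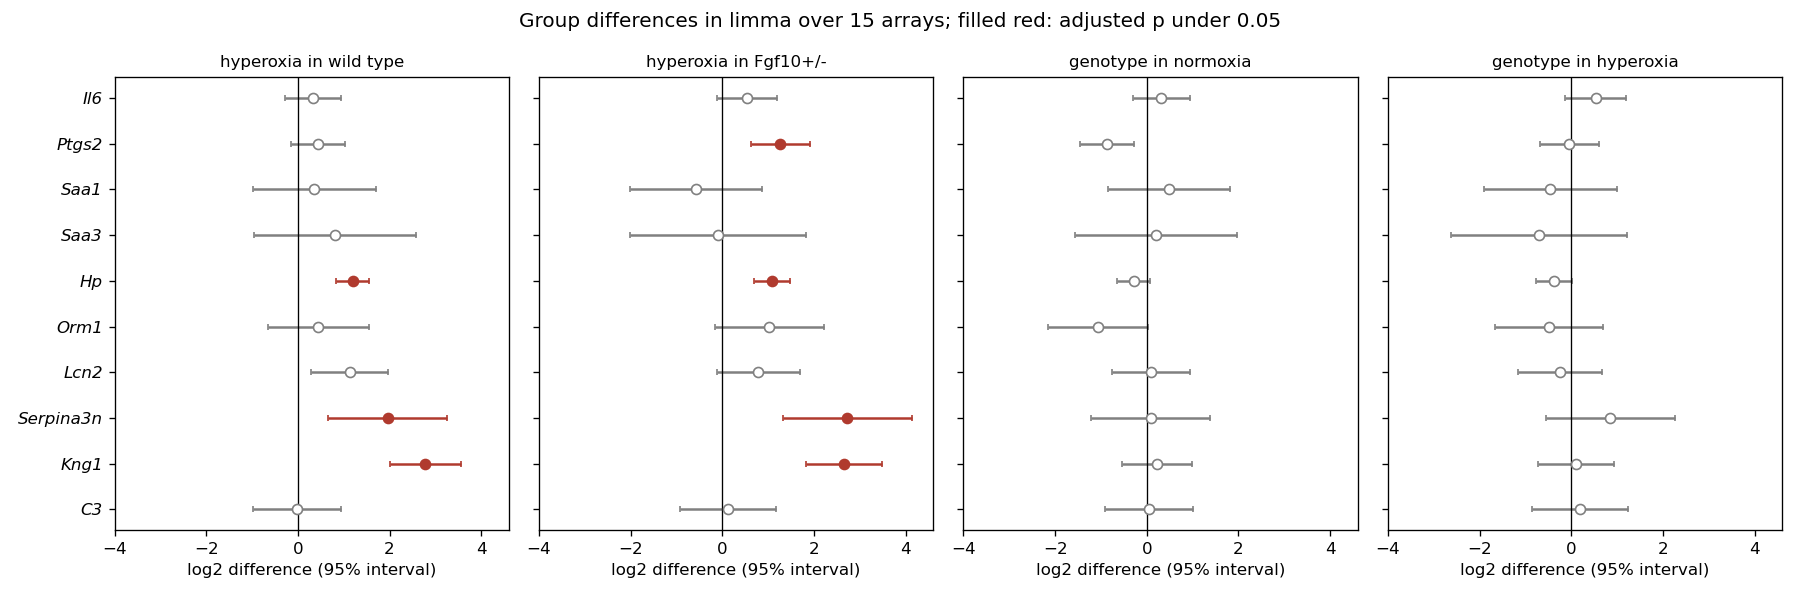
Log2 differences of the 10 genes with 95% intervals in the limma fit of 15 arrays, for hyperoxia minus normoxia in each genotype and for Fgf10+/- minus wild type at each oxygen level. Filled red points have an adjusted p under 0.05: Kng1, Hp and Serpina3n in both genotypes and Ptgs2 in Fgf10+/- pups. The Ptgs2 call was lost with the mean of its features. The genotype panels have no filled points.

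Kng1 encodes kininogen, the precursor of bradykinin, a peptide that widens vessels and makes them leak. It had the clearest response. Kng1 read 5.33, 3.84, 4.73 and 3.83 in wild-type normoxia and 6.96, 7.19, 7.67 and 7.03 in wild-type hyperoxia. In Fgf10+/- pups Kng1 read 5.50, 4.46, 4.51 and 4.14 in normoxia and 8.48, 7.73, 7.0 and 7.20 in hyperoxia, the first of these on the picked array. All 8 hyperoxia arrays lay above all 8 normoxia arrays, whose group means of 4.43 ± 0.73 and 4.65 ± 0.59 (SD, n = 4 each) straddled the array median. The difference was 2.78 (SE 0.36, 6.88-fold, limma adjusted p = 0.000188) in wild type and 2.66 (SE 0.39, 6.31-fold, adjusted p = 0.000445) in Fgf10+/-. It rests on 1 of the gene's 2 features, as the other averaged 3.66, never exceeded the array median and differed by -0.25 and -0.52. The related gene Kng2 was called in wild type (2.60 to 4.67, adjusted p = 0.0164), where 1 of 4 normoxia arrays was above the filter level, so the size of that difference is uncertain. In Fgf10+/- it read 3.78 and 4.94 and did not pass (1.16, SE 0.58, adjusted p = 0.195). Whether the Kng1 feature also detects Kng2 was not tested, since probe sequences were not used here.

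Hp encodes haptoglobin, which binds free haemoglobin. Its levels were 13.63, 13.35, 13.72 and 13.22 in wild-type normoxia against 14.51, 15, 14.58 and 14.60 in wild-type hyperoxia. The Fgf10+/- arrays gave 13.43, 13.12, 13.34 and 12.90 for Hp in normoxia and 14.86, 14.20, 14.60 and 14.07 in hyperoxia. As with Kng1, the lowest of the 8 hyperoxia arrays was above the highest of the 8 normoxia arrays. Group means were 13.48 ± 0.23 and 14.67 ± 0.22 in wild type and 13.20 ± 0.24 and 14.43 ± 0.36 in Fgf10+/- (SD, n = 4 each). Hp rose by 1.19 (SE 0.17, 2.29-fold, limma adjusted p = 0.000359) in wild type and by 1.09 (SE 0.18, 2.13-fold, adjusted p = 0.00103) in Fgf10+/-. In whole-lung RNA, more cells of a type that make a transcript and more transcript per cell cannot be told apart, here or for the genes that follow.

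Serpina3n is a secreted serine protease inhibitor of the antichymotrypsin family. It was under the array median on 7 of the 8 normoxia arrays, with 3.34, 3.37, 1.81 and 3.09 in wild type and 4.92, 1.81, 2.5 and 2.74 in Fgf10+/-. Hyperoxia arrays read 5.33, 5.58, 4.91 and 3.64 in wild type and 6.24, 5.61, 5.51 and 6.03 in Fgf10+/-. In neither genotype did the 2 oxygen groups overlap. Since 0 of 4 wild-type and 1 of 4 Fgf10+/- normoxia arrays exceeded the 25th percentile of the array that served as the filter (3.69), Serpina3n entered the test through its hyperoxia arrays, and no fold is given. Its hyperoxia means lay 1.17 (wild type) and 2.02 (Fgf10+/-, 3 arrays) above that level. The fitted differences were 1.96 (SE 0.60, limma adjusted p = 0.0364) and 2.72 (SE 0.65, adjusted p = 0.0098), values that describe the measured signals and carry the same limit. Its wild-type call was lost in 6 of the 8 fits that left out 1 wild-type array, namely all but those without hyperoxia replicate 4 or normoxia replicate 1, with adjusted p from 0.0182 to 0.104 over the 8.

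**Figure D3:**
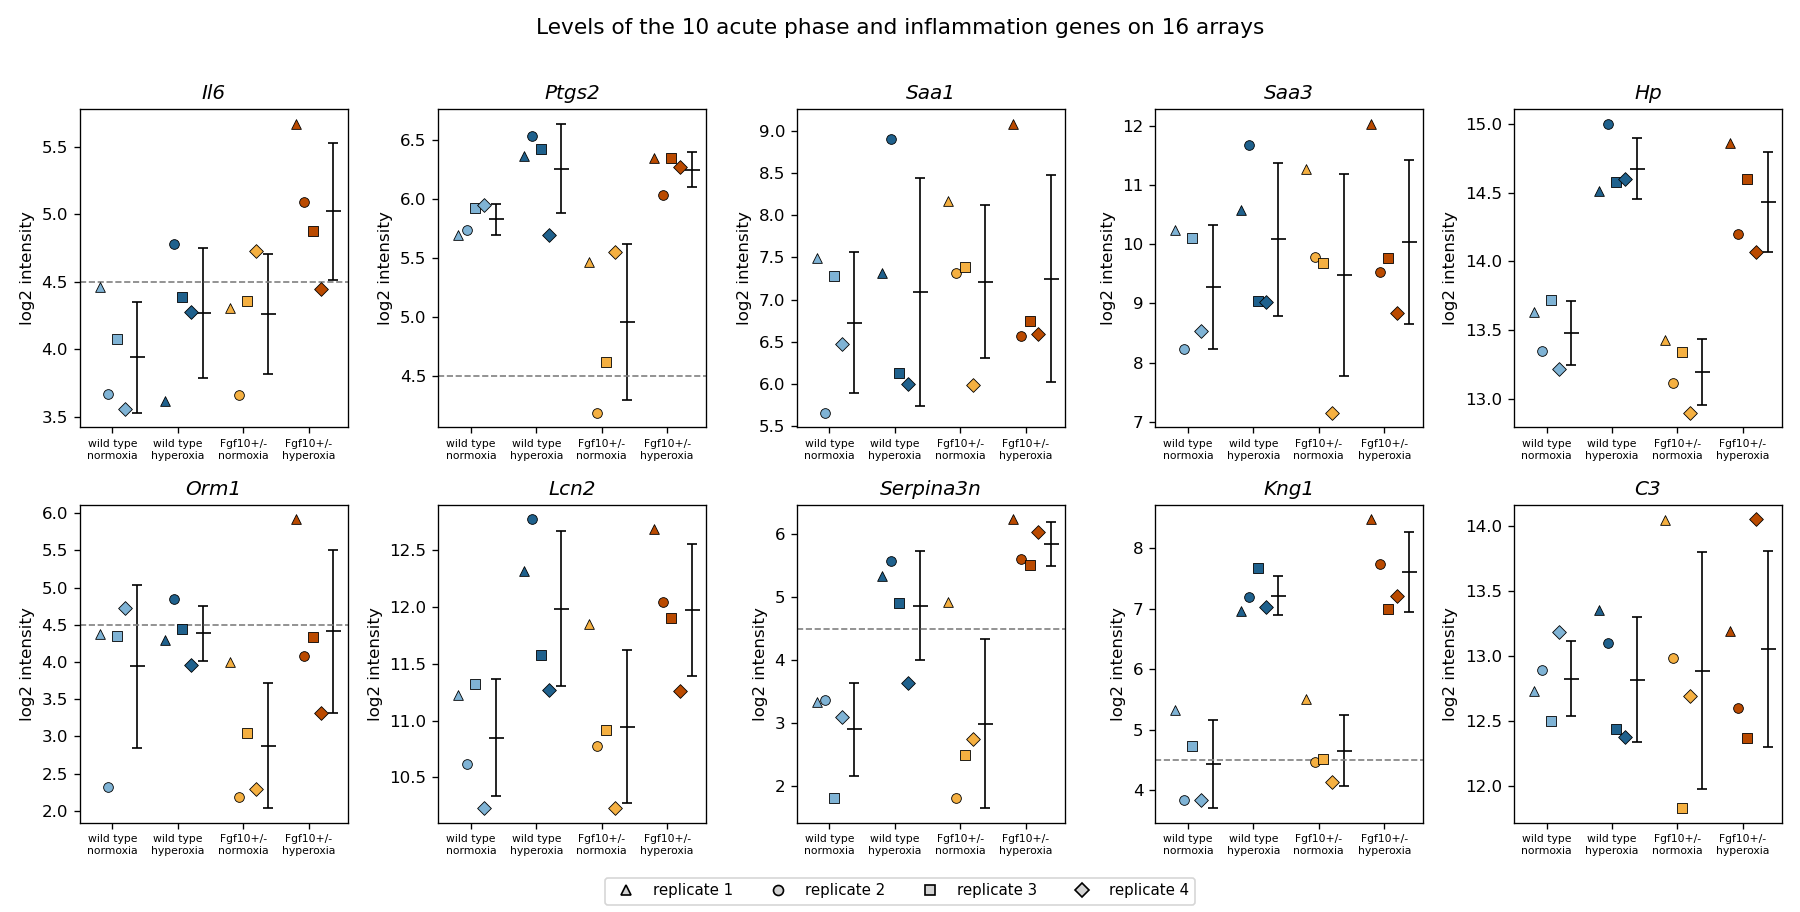
Log2 intensity (vertical axes, 1 panel per gene with its own scale) of the 10 genes on the 16 arrays by group, with marker shape giving the replicate, and a horizontal tick and error bar for the mean and SD of the 4 arrays. The dashed line is the array median of 4.50; the hyperoxia arrays of Kng1 and Hp lie above all their normoxia arrays, and those of Saa1, Saa3 and C3 are interspersed with them.

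Ptgs2 encodes cyclooxygenase 2, the inducible enzyme of prostaglandin synthesis. On the feature with the highest mean, wild-type arrays read 5.70, 5.74, 5.93 and 5.95 in normoxia and 6.37, 6.54, 6.43 and 5.70 in hyperoxia. In Fgf10+/- lung Ptgs2 read 5.47, 4.19, 4.62 and 5.55 in normoxia and 6.35, 6.04, 6.35 and 6.27 in hyperoxia. The Fgf10+/- groups did not overlap, whereas replicate 4 of wild-type hyperoxia lay within the wild-type normoxia range. Ptgs2 differed by 0.43 (SE 0.27, limma adjusted p = 0.317) in wild type and rose by 1.27 (SE 0.29, 2.41-fold, adjusted p = 0.00846) in Fgf10+/-. All 10 features of Ptgs2 were higher in hyperoxia in both genotypes, by 0.23 to 1.27 (median 0.57) in Fgf10+/- and by 0.03 to 1.13 (median 0.37) in wild type. The feature used gave the largest Fgf10+/- difference and was the only 1 to separate those groups, while a different feature separated the wild-type groups, so the contrast between the genotypes depends on the feature. With the mean of the features the difference was 0.64 and no longer passed (adjusted p = 0.0775), nor did it in a fit of only the groups compared (1.27, adjusted p = 0.0574).

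Il6, the cytokine that gives the acute phase response much of its drive in liver, stayed near the array median. Its levels ran from 3.56 to 4.46 in wild-type normoxia, 3.62 to 4.78 in wild-type hyperoxia, 3.66 to 4.73 in Fgf10+/- normoxia and 4.45 to 5.67 in Fgf10+/- hyperoxia, where the highest was the picked array. On the feature used all groups overlapped. The difference between oxygen levels was 0.32 (95% interval -0.29 to 0.94) in wild type and 0.54 (-0.12 to 1.20) in Fgf10+/-, with limma adjusted p of 0.496 and 0.256. Its second feature differed by 0.18 and 0.58, and on it the Fgf10+/- groups did not overlap (3.22 to 3.80 in normoxia, 3.96 to 5.75 in hyperoxia).

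Saa1 and Saa3 encode serum amyloid A proteins, lipid-binding proteins of high-density lipoprotein, of which Saa3 is made mainly outside the liver. Saa3 read 10.24, 8.23, 10.11 and 8.53 in wild-type normoxia and 10.59, 11.68, 9.04 and 9.03 in wild-type hyperoxia. For Saa3 the Fgf10+/- arrays read 11.27, 9.79, 9.69 and 7.15 in normoxia and 12.04, 9.54, 9.77 and 8.84 in hyperoxia. Normoxia arrays alone spanned 4.12, more than any difference between groups. The difference was 0.81 (SE 0.82, limma adjusted p = 0.565) in wild type and -0.09 (SE 0.89, 95% interval -2.01 to 1.82, adjusted p = 0.961) in Fgf10+/-, and 0.57 there with the picked array included. Saa1 followed the same arrays. It read 7.49, 5.66, 7.28 and 6.47 in wild-type normoxia, 7.32, 8.90, 6.13 and 6.0 in wild-type hyperoxia, 8.17, 7.31, 7.38 and 5.99 in Fgf10+/- normoxia, and 9.08, 6.57, 6.75 and 6.59 in Fgf10+/- hyperoxia. The 3 Fgf10+/- hyperoxia arrays other than the picked one were close to each other, in the lower part of the normoxia range. Saa1 differed by 0.36 (SE 0.62, adjusted p = 0.755) in wild type and -0.58 (SE 0.67, adjusted p = 0.617) in Fgf10+/-, and its wild-type difference was -0.24 without hyperoxia replicate 2. Saa2, a close copy of Saa1 that its feature may share, differed by 0.18 (adjusted p = 0.747) and 0.07 (adjusted p = 0.919).

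Lcn2 encodes lipocalin 2, which sequesters bacterial iron carriers and is made by neutrophils and airway epithelium. Its levels were 11.22, 10.62, 11.32 and 10.23 in wild-type normoxia and 12.31, 12.77, 11.58 and 11.27 in wild-type hyperoxia. For Lcn2 the Fgf10+/- arrays read 11.85, 10.78, 10.92 and 10.23 in normoxia and 12.68, 12.04, 11.90 and 11.26 in hyperoxia. In each genotype 1 hyperoxia array, replicate 4, lay within the normoxia range. The difference was 1.13 (SE 0.39, 95% interval 0.29 to 1.98, limma adjusted p = 0.0594) in wild type and 0.79 (SE 0.42, -0.12 to 1.70, adjusted p = 0.225) in Fgf10+/-, so neither passed. In wild type it passed without hyperoxia replicate 4 (1.37, adjusted p = 0.0349), with a filter at the 50th percentile (adjusted p = 0.0381) and with replicate number as a block (adjusted p = 0.0128), which also gave a call in Fgf10+/- (0.97, adjusted p = 0.039).

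Orm1 encodes orosomucoid 1, a plasma carrier protein. It lay mostly under the array median, with levels of 4.37, 2.32, 4.35 and 4.72 in wild-type normoxia and 4.29, 4.85, 4.45 and 3.96 in wild-type hyperoxia. In Fgf10+/- lung Orm1 read 4.00, 2.18, 3.04 and 2.29 in normoxia and 5.92, 4.08, 4.34 and 3.31 in hyperoxia. It exceeded the array median on 3 of the 16 arrays, 1 of them the picked one. Its differences of 0.45 (SE 0.51, limma adjusted p = 0.614) and 1.03 (SE 0.55, adjusted p = 0.223) did not pass. The wild-type value rested on normoxia replicate 2, without which it was -0.09. Orm2, a close copy, differed by 0.82 (adjusted p = 0.273) and 0.34 (adjusted p = 0.717).

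C3, the central protein of complement, was high in all groups, and the group means lay close together. It read 12.73, 12.89, 12.50 and 13.18 in wild-type normoxia and 13.35, 13.10, 12.44 and 12.38 in wild-type hyperoxia. For C3 the Fgf10+/- arrays read 14.04, 12.98, 11.83 and 12.69 in normoxia and 13.19, 12.60, 12.37 and 14.05 in hyperoxia. The differences were -0.01 (SE 0.45, 95% interval -0.97 to 0.95) and 0.12 (SE 0.48, -0.92 to 1.16), with limma adjusted p of 0.989 and 0.899. Its 11 features gave -0.07 to 0.06 in wild type and 0.06 to 0.18 in Fgf10+/-. The 2 highest C3 arrays, replicate 1 of Fgf10+/- normoxia and replicate 4 of Fgf10+/- hyperoxia, also had the highest mean of 9 mesothelial markers (8.55 and 8.49, against 6.5 to 7.98 on the other 14 arrays).

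Mesothelial cells cover the lung surface. The array means of their 9 markers ran from 7.10 to 7.87 in wild-type normoxia, 6.5 to 7.10 in wild-type hyperoxia, 6.57 to 8.55 in Fgf10+/- normoxia and 6.67 to 8.49 in Fgf10+/- hyperoxia, and each of the 9 exceeded the array median somewhere. Expressed as the log2 of the summed intensity of the 9, the ranges were 12.90 to 13.22, 13.28 to 13.94, 12.59 to 13.74 and 13.80 to 14.68, in the same order of groups. Deviations of C3 and of the mesothelial mean from their group means correlated with r = 0.73 over 16 arrays and 0.83 over 15. Over those 15, C3 had r = 0.87 with the mean of 34 complement genes. With marker means it had r = 0.49 for alveolar type 2 cells, 0.34 for macrophages and monocytes and -0.38 for hepatocytes. With the kallikrein and kinin genes r was -0.56. In wild-type hyperoxia 1 of the 9 rose (Krt19, which other epithelia also express) and 2 fell (Upk3b and Upk1b), and in Fgf10+/- 2 rose (Krt19 and Msln). These were 33.3% and 22.2% of the list, against 19.2% and 20.2% of all genes. The part of mesothelium in the C3 levels was not tested.

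Neutrophils carry much Lcn2 themselves. The mean of 22 neutrophil markers was 8.09, 7.24, 7.65 and 6.77 in wild-type normoxia and 7.93, 7.53, 7.47 and 7.62 in wild-type hyperoxia. For these markers the Fgf10+/- arrays averaged 8.30, 7.25, 7.81 and 6.98 in normoxia and 8.07, 7.62, 7.47 and 7.48 in hyperoxia, so replicate 1 was highest in all 4 groups. Summed levels (log2 of the sum) ran from 14.87 to 15.61, 14.98 to 15.44, 15.12 to 16.10 and 14.85 to 15.50 in those groups, and all 22 markers exceeded the array median on some array. Their deviations correlated with those of Saa3 (r = 0.71 over 15 arrays), Lcn2 (0.71) and Kng1 (0.77). This was not particular to neutrophil markers, since Saa3 had r = 0.72 with the macrophage and monocyte mean and 0.68 with the airway secretory mean, Lcn2 0.51 and 0.60, and Kng1 0.60 and 0.37. Between oxygen levels 0 of 22 rose and 1 fell in wild type (the receptor gene Csf3r), and 1 rose (Elane) and 1 fell (Csf3r) in Fgf10+/-. That was 4.55% and 9.09% of the list, against 19.2% and 20.2% of all genes. The abundant neutrophil genes S100a8 and S100a9 differed by -0.33 (limma adjusted p = 0.739) and 0.52 (adjusted p = 0.531) in wild type and by -0.62 (adjusted p = 0.515) and 0.08 (adjusted p = 0.942) in Fgf10+/-. The part of neutrophils in the array-to-array spread was not tested.

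**Figure D4:**
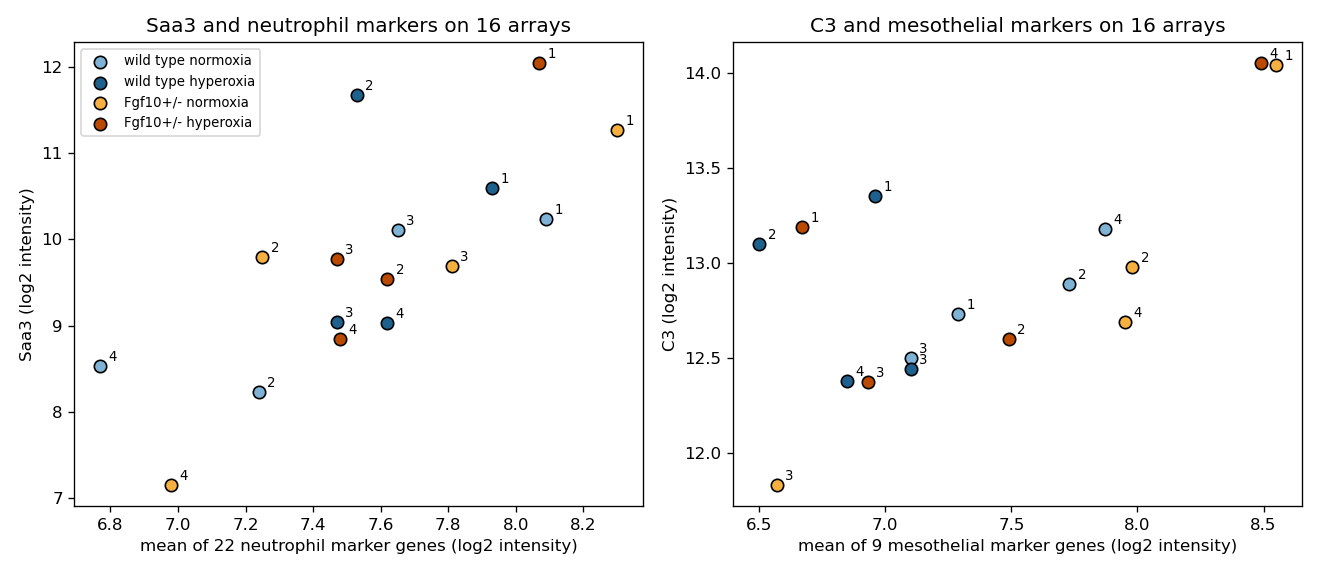
Saa3 against the mean of 22 neutrophil markers (left) and C3 against the mean of 9 mesothelial markers (right), in log2 intensity, 1 point for each of the 16 arrays, coloured by group and numbered by replicate. Saa3 is highest on replicate 1 of Fgf10+/- hyperoxia (12.04), whose neutrophil mean is 8.07; the 2 arrays with C3 of 14.04 and 14.05 have the 2 highest mesothelial means.

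Markers of other cell types were set beside the genes that rose. Over all genes 10.3% were called higher and 8.92% lower in wild type, and 11.1% and 9.14% in Fgf10+/-. Of 11 airway secretory markers 7 rose in each genotype, among them Aldh1a1 (1.87 and 2.16) and Bpifa1 (2.49 and 2.36), and of 12 alveolar type 2 markers 4 rose in wild type and 7 in Fgf10+/-. The type 2 markers also differed between genotypes in normoxia, with 7 of 12 lower in Fgf10+/- than in wild type (median -0.59). That direction was called for 0.633% of all genes. The interaction was called for 0 of these 12 and for 0 of all genes. The airway secretory mean ran from 10.49 to 10.96 and 10.14 to 10.75 in the normoxia groups of wild type and Fgf10+/- and from 11.56 to 11.90 and 11.50 to 11.80 in hyperoxia. Deviations of the type 2 mean correlated with those of Kng1 (r = 0.75) and Serpina3n (0.71) over 15 arrays, and those of the alveolar type 1 mean ran against Saa3 (r = -0.76). The part of epithelial composition in the rises of Kng1, Hp and Serpina3n was not tested. Liver is the classical source of these proteins. The mean of 16 hepatocyte markers was 5.83 on replicate 2 of Fgf10+/- hyperoxia, against 4.64 to 5.41 on the other 15 arrays, with the fetuin gene Ahsg at 8.37 there. Without that array Kng1 rose by 2.45 in Fgf10+/- (limma adjusted p = 0.0032), and 4 of the 10 genes were called as before. Of these markers 0 rose and 1 fell in each genotype (Fabp1 in wild type and Tat in Fgf10+/-), and Ttr and Hnf4a never exceeded the array median. Of 15 immediate-early genes, which respond to tissue handling, 0 were called in either genotype. Among 19 macrophage and monocyte markers 2 rose and 4 fell in wild type and 2 rose and 5 fell in Fgf10+/-, with the scavenger receptor gene Marco higher by 1.75 and 2.19 and with Siglecf (-1.58 and -1.35), Ear2 (-1.24 and -0.72) and the lysozyme gene Lyz2 (-1.44 and -0.89) lower. The remaining marker lists, as genes higher and lower, gave 5 and 0 of 10 in wild type and 6 and 1 in Fgf10+/- for alveolar type 1 cells, 1 and 3 of 11 and 1 and 2 for fibroblasts, and 0 and 2 of 10 and 0 and 1 for endothelium. For adipocytes they gave 1 and 1 of 12 and 1 and 0, and for skeletal muscle 0 and 2 of 15 and 0 and 0.

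The question of whether the genotype alters these genes was put at each oxygen level, with comparisons that share the same groups as those above. In normoxia 0 of the 10 genes passed, where 0.793% of all genes did (0.16% higher and 0.633% lower in Fgf10+/-). Ptgs2 was lower in all 4 Fgf10+/- arrays than in any wild-type array, by -0.87 (SE 0.27), which did not pass over all genes (limma adjusted p = 0.166), and 4.53% of all genes separated in that direction. All 10 Ptgs2 features were lower, by -0.03 to -0.87 (median -0.42), and the feature used, which gave the largest difference, was the only 1 to separate the groups. Orm1 differed by -1.06 (SE 0.51, adjusted p = 0.404). In hyperoxia 0 of 10 passed, against 0.399% of all genes (0.339% higher and 0.0598% lower in Fgf10+/-), with differences from -0.70 (Saa3) to 0.85 (Serpina3n) and adjusted p of 0.554 or more. The interaction, the difference between the genotypes' responses to oxygen, was called for 0 of the 10 and for 0 of all genes (0%). Of the 20051 genes, 1241 had an unadjusted p under 0.05, a level that chance alone reaches in a share of 0.05. With trend and robust options limma called 2 genes. For Ptgs2, called in Fgf10+/- and not in wild type, the interaction was 0.84 (95% interval -0.03 to 1.70, adjusted p = 0.816), so its response was not shown to differ between genotypes. Over its 10 features the interaction ran from -0.90 to 0.84 (median 0.12), with 3 below 0. For Kng1 it was -0.13 (-1.26 to 1.01), for Hp -0.10 (-0.64 to 0.43) and for Serpina3n 0.76 (-1.15 to 2.68).

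Other genes of the same pathways were counted from lists. Of 31 other acute phase genes 7 rose and 0 fell in hyperoxia in each genotype, 22.6% of the list against 19.2% and 20.2% of all genes, with list medians of 0.31 and 0.34. Ceruloplasmin, Cp, a copper-carrying ferroxidase, rose by 1.03 (SE 0.16, limma adjusted p = 0.000695) and 1.00 (SE 0.17, adjusted p = 0.00133). Wild-type rises included Cd14 (1.31, adjusted p = 0.0016) and Serpina3g (2.29, adjusted p = 0.00474), a member of the gene cluster of Serpina3n. In Fgf10+/- pups the metal-binding metallothionein Mt1 (1.41, adjusted p = 0.000997) and the C1 inhibitor Serping1 (0.53, adjusted p = 0.0012) rose. Serping1 was also higher in Fgf10+/- than in wild type in hyperoxia, at 12.99 against 12.39 (0.61, SE 0.09, adjusted p = 0.00932), the 1 gene of that list called for genotype. C-reactive protein gene Crp, Apcs, Saa4 and Fga never exceeded the array median.

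Upstream of the acute phase genes, 28 genes of interleukin-6 and STAT3 signalling were counted. Of these, 5 rose and 2 fell in wild type, and 4 rose and 1 fell in Fgf10+/-. The share of the list called was above that of all genes in wild type (19.2%). In Fgf10+/- it was below, at 17.9% against 20.2% of all genes. Stat3, the transcription factor that carries the interleukin-6 signal, rose by 0.71 (SE 0.11, limma adjusted p = 0.00062) and 0.64 (SE 0.12, adjusted p = 0.00182). The receptor gene Il6ra differed by 0.43 (adjusted p = 0.0603) in wild type and rose by 0.75 (adjusted p = 0.00469) in Fgf10+/-, while its signalling partner Il6st differed by -0.32 (adjusted p = 0.0545) and -0.25 (adjusted p = 0.162). Socs3, a feedback inhibitor that STAT3 induces, differed by 0.50 (adjusted p = 0.13) and 0.24 (adjusted p = 0.532). Among the C/EBP genes, Cebpb rose by 0.36 in wild type (adjusted p = 0.00986) and differed by 0.01 in Fgf10+/- (adjusted p = 0.97), and Cebpd rose by 0.39 (adjusted p = 0.036) and differed by 0.35 (adjusted p = 0.0718). Cebpa was lower in Fgf10+/- than in wild-type normoxia (-0.83, adjusted p = 0.0147).

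Of 38 genes of interleukin-1, TNF and NF-kB signalling 7 rose and 3 fell in wild type and 6 rose and 4 fell in Fgf10+/-. That was 26.3% of the list in each genotype, against 19.2% and 20.2% of all genes. Relb, an NF-kB subunit, rose by 1.07 and 0.89 (limma adjusted p = 0.0023 and 0.0104), and Nfkbia, the inhibitor that NF-kB induces, by 0.53 and 0.47 (adjusted p = 0.0172 and 0.0423). The TNF receptor Tnfrsf1a fell by 0.83 and 0.73 and the cytokine Il18 by 1.45 and 0.91, all with adjusted p of 0.00289 or less. Il1b differed by 0.66 (adjusted p = 0.253) and 0.06 (adjusted p = 0.942), and Tnf by 0.10 (adjusted p = 0.887) and 0.38 (adjusted p = 0.512). Nfkbiz, a nuclear regulator of NF-kB, differed by -0.28 (adjusted p = 0.516) and -0.24 (adjusted p = 0.61).

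**Figure D5:**
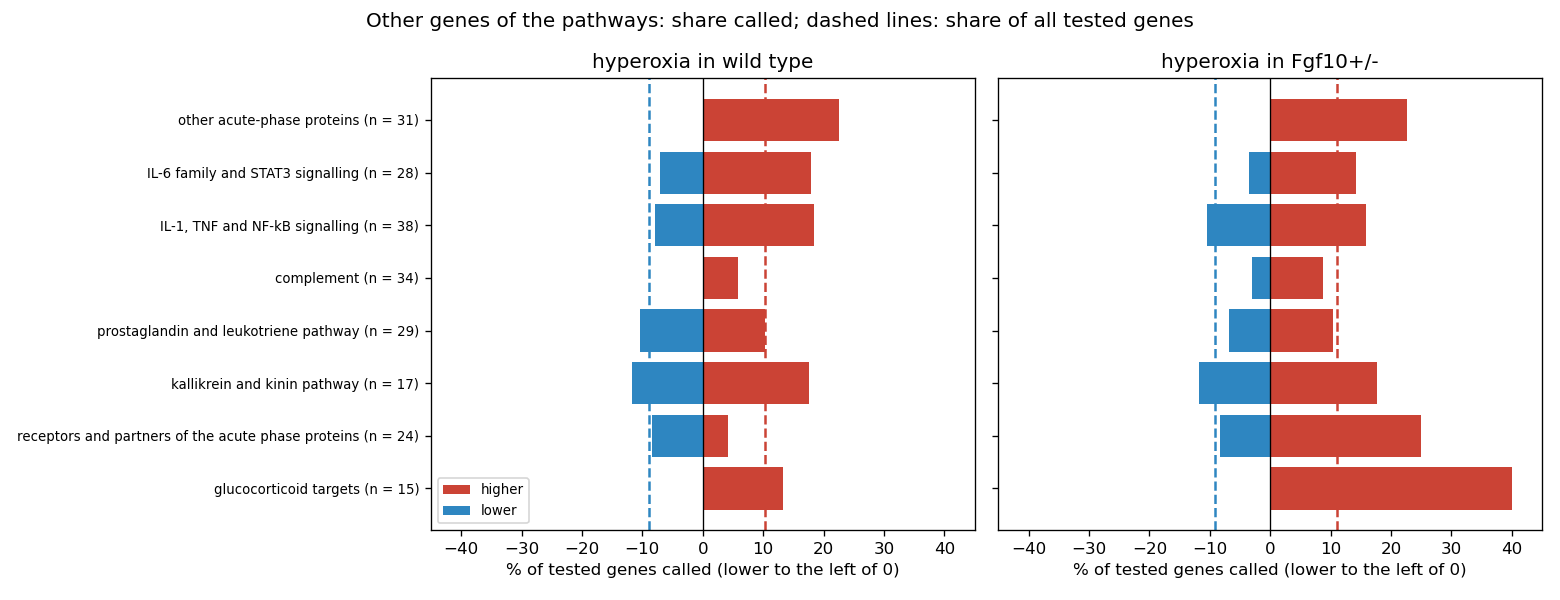
Share of each list of other pathway genes that was called higher (red, to the right of 0) or lower (blue, to the left) in hyperoxia in wild type and in Fgf10+/- lung, in percent of the list's tested genes. Dashed lines give the same shares of all tested genes (10.3% higher and 8.92% lower in wild type, 11.1% and 9.14% in Fgf10+/-); 7 of 31 other acute phase genes were called higher in each genotype.

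Around C3, 2 of 34 complement genes rose in wild type (5.88% called) and 3 rose and 1 fell in Fgf10+/- (11.8%). Over all genes 19.2% and 20.2% were called. Cd55, which shields cells from complement, rose by 0.66 (limma adjusted p = 0.00251) and 0.89 (adjusted p = 0.000576). Around Ptgs2, 3 of 29 prostaglandin and leukotriene genes rose and 3 fell in wild type and 3 rose and 2 fell in Fgf10+/-. Called were 20.7% and 17.2% of this list, near the shares of all genes. The prostaglandin E receptor gene Ptger2 fell by 1.19 and 1.25 (adjusted p = 3.08e-05 and 4.53e-05), and Ptgs1, the constitutive cyclooxygenase, fell by 0.48 in wild type (adjusted p = 0.0249). Ptges, a synthase of prostaglandin E2, differed by -0.13 (adjusted p = 0.307) and -0.16 (adjusted p = 0.253), and Hpgd, which degrades it, by -0.15 (adjusted p = 0.741) and -0.58 (adjusted p = 0.137).

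Around Kng1, 3 of 17 kallikrein and kinin genes rose and 2 fell in each genotype. This was 29.4% of the list, against 19.2% of all genes in wild type and 20.2% in Fgf10+/-. Klkb1, plasma prekallikrein, whose enzyme frees bradykinin from kininogen, rose from 5.05 to 5.78 in wild type (0.73, SE 0.14, limma adjusted p = 0.00254) and from 4.82 to 5.87 in Fgf10+/- (1.05, SE 0.15, adjusted p = 0.000405). The peptidases that degrade kinins did not share a direction. Ace fell by 0.70 in wild type (adjusted p = 0.0152) and differed by -0.25 in Fgf10+/- (adjusted p = 0.42). Mme, neprilysin, rose by 0.67 in wild type (adjusted p = 0.0434) and differed by 0.17 in Fgf10+/- (adjusted p = 0.685). Xpnpep2, an aminopeptidase, differed by 0.35 in wild type (adjusted p = 0.468) and rose by 1.18 in Fgf10+/- (adjusted p = 0.0181). Cpd, a carboxypeptidase, fell by 0.50 and 0.55 (adjusted p = 0.00978 and 0.00919). Prcp, of the same list, differed by -0.46 in wild type (adjusted p = 0.0585) and fell by 0.83 in Fgf10+/- (adjusted p = 0.0042). Of 24 receptors and partners of the acute phase proteins 1 rose and 2 fell in wild type and 6 rose and 2 fell in Fgf10+/-. These were 12.5% and 33.3% of the list, against 19.2% and 20.2% of all genes. The list median was 0.09 in each genotype, and the interaction was called for 0 of the 24 and for 0 of all genes. Lrp2, megalin, an uptake receptor of lipocalin 2, rose by 1.53 (adjusted p = 0.000156) and 0.96 (adjusted p = 0.00536), and Scarb1, a lipoprotein receptor that also binds serum amyloid A, fell by 0.95 and 0.78 (adjusted p = 0.00221 and 0.0107). Of 15 glucocorticoid targets 2 rose in wild type (13.3%) and 6 in Fgf10+/- (40.0%), where 10.3% and 11.1% of all genes were called higher. The interaction was called for 0 of the 15 and for 0 of all genes, so the responses were not shown to differ between genotypes. The haptoglobin-haemoglobin receptor gene Cd163 never exceeded the array median.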

How the data were processed

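Whole-lung RNA, in 4 groups of 4 samples, was hybridised to a one-colour Agilent array, and the authors deposited log2 intensities of 62976 features. The labels do not say whether each sample was a separate pup. Array medians lay within 0.00068 of one another, as quantile normalization would leave them, a step that no label records. The sources used here do not give the background correction, the slide or the scan batch. These values were used as deposited, without further normalization, and the 33 missing values spared these genes.

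Features took their gene from the platform annotation (31465 name 1 gene, 31511 none), updated through RefSeq accessions for 29036. A feature was kept if it exceeded the 25th percentile of its array (3.69) on at least 4 of 15 arrays, and the kept feature with the highest mean stood for its gene. Differences were fitted with limma 3.58.1 in R 4.3.3, with a mean per group over 15 arrays (11 residual and 2.114 prior degrees of freedom) and Benjamini-Hochberg adjustment over 20051 genes per comparison. Precision is limited by how many arrays there are. The fit was tested on simulated data. The 10 genes and the gene lists were chosen with earlier results of these data known.

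Named were mainly the 10 genes, 17 fixed genes such as Stat3, Il6ra and S100a8, and the 10 genes most like the 10. Others came from the 15 genes highest on the picked array and from the lists. In each list, up to 3 called genes per direction with the smallest adjusted p were eligible, and not all of those were named. Over all genes, deviations of arrays with the same replicate number correlated little (-0.028 to 0.091). This does not settle whether replicate numbers pair the arrays for these genes, since replicate 1 had the highest neutrophil marker mean in every group. The main fit used no pairing, and the replicate block was run as an alternative. Alternatives were no filter or one at the 50th percentile, the mean of a gene's features, rescaling to a common 75th percentile or quantiles, trend and robust options, array weights, a fold minimum of 1.5, a fit restricted to both groups of a comparison, the replicate block, all 16 arrays, and each array left out.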

Additional observations from a re-analysis of the deposited data

Results flagged for a closer look

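In each of 30 sets of 4 arrays (10 genes in the 3 groups that do not hold the array by which the genes were picked), the gap of the highest or lowest array to its nearest neighbour was set against the whole range, with Dixon's 95% critical value for 4 samples. Chance flags about 5% of independent sets, here 1.5, and 1 was found; the genes vary together, so the sets are not independent. Orm1 was 2.32 on replicate 2 of wild-type normoxia against 4.35 to 4.72 on the other 3 arrays (ratio 0.846).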

How the results depend on the processing

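The counts of these genes called stayed within 1.5 times of the values reported under the alternatives run. They ran from 3 to 4 in wild-type hyperoxia (2 to 4 with 1 array left out) and from 3 to 5 in Fgf10+/- hyperoxia (4 in each fit with 1 array left out), and were 0 for genotype and interaction. With replicate number as a block (replicate block) 4 and 5 were called, Lcn2 being added in both, and no other call changed. Without wild-type normoxia replicate 4, 317 genes in place of 159 were called for genotype in normoxia, 0 of them among the 10. That count ran from 47 (without wild-type normoxia replicate 1) to 317 with 1 array left out, and was 62 to 68 without wild-type normoxia replicate 2 or 3 or Fgf10+/- normoxia replicate 2 or 4. Over the other alternatives it ran from 0 (only both groups compared) to 522 (trend and robust options). Rescaling moved the median of all genes by at most -0.04.

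Signs turned only for differences that did not pass. C3 in wild type (-0.01) was 0.016 with the mean of its features, 0.015 with array weights and -0.19 to 0.13 with 1 array left out. Saa3 in Fgf10+/- (-0.09) was 0.57 with all 16 arrays, 0.25 with array weights, 0.27 with the replicate block and -0.87 to 0.50 with 1 array left out. Saa1 in Fgf10+/- (-0.58) was 0.034 with all 16 arrays. With 1 array left out, Saa1 in wild type ran from -0.24 to 0.73, Orm1 in wild type from -0.090 to 0.71 and C3 in Fgf10+/- from -0.40 to 0.51. The cause was not tested. Kng1, Orm1, Serpina3n and Il6 lie near or under the array median in normoxia, where signal over background limits what a difference can show.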
